A study of Arabidopsis thaliana with 69 samples.

Results

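Poorly paired candidate cleavage sites are predicted miRNA target positions in Arabidopsis transcripts at which the pairing between guide and target carries many mismatches. A site is 1 position in 1 transcript, and the poorly paired sites are those with an Allen score above 4 in the site tables of the 33 nanoPARE libraries. The Allen score adds 1 for each mismatch and 0.5 for each G:U pair, with the penalty doubled at guide positions 2 to 13, so that 0 is a perfect match. The tables listed 1735 distinct sites in all, of which 1492 (86.0%) were poorly paired and 243 were well paired, with a score of 4 or less. No site appeared with different scores in different libraries. The scores of the poorly paired sites ran from 4.5 to 6, with 167 sites at 4.5, 322 at 5, 401 at 5.5 and 602 at 6. They lay in transcripts of 1403 genes, 84 of which held several of them, and were assigned to 125 of the 126 guides in the tables.

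nanoPARE sequences the 5′ ends of RNA from small amounts of tissue, and the software EndCut lists the positions where such ends fall on a predicted cleavage site. All plants were of the Col-0 accession, and each group had 3 biological replicates. Wild-type embryos were collected at 8 stages: before and at the globular stage, at early and late heart, at early and late torpedo, at bent cotyledon and when mature green. The mutant groups were dcl1-5 globular embryos and the seedling roots and seedling shoots of xrn4-5 plants. The dcl1-5 embryos were picked by their abnormal shape from the seeds of selfed heterozygous plants, so the group was defined by its shape. The xrn4-5 seedlings have no wild-type seedling partner among these libraries, so genotype and tissue cannot be told apart between embryos and seedlings.

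In plants, a miRNA loaded into an ARGONAUTE protein pairs with its target over most of its length, and the protein cuts the target opposite guide positions 10 and 11. DICER-LIKE1 (DCL1) releases miRNAs from their hairpin precursors, so an end that depends on a miRNA is expected to be lost when DCL1 is. XRN4 is the cytoplasmic exonuclease that removes the downstream cleavage fragment, which persists in its absence. The trans-acting siRNA precursors TAS1 and TAS3 are non-coding RNAs that are cut under the direction of miR173 and miR390, respectively, and then converted into secondary siRNAs. RNA 5′ ends also arise by general mRNA decay, and abundant mRNAs such as those of ribosomal proteins supply many of them.

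The sites below are shown because the comparison between genotypes turns on them, or because they were listed in nearly every library. For each, the guide is given first with its seed, bases 2 to 8, in capitals, and then the target site with the bases that do not form a Watson-Crick pair with the guide in capitals. All run 5′ to 3′ in DNA letters. Guide and target sequences were read from RefSeq, assembly TAIR10.1. The first 4 targets were called lower in dcl1-5 embryos, the next 3 were still listed in some dcl1-5 libraries, and the last 2 are well-paired sites for comparison.
miR173-5p: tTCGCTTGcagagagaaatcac
TAS1B, site 373, score 4.5, chr1:18549660-18549681, minus strand, non-coding transcript: gtgatttTtctcAAcaagcgaa
miR390a-5p: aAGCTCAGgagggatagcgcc
TAS3C, site 428, score 4.5, chr5:23394422-23394442, plus strand, non-coding transcript: gTTTctatTcctcctgagctt
TAS3A, site 863, score 4.5, chr3:5862343-5862363, plus strand, non-coding transcript: TTGTctatccctcctgagctA
miR159b-3p: tTTGGATTgaagggagctctt
ATPD, site 88, score 5.5, chr4:6100820-6100840, plus strand, coding sequence: CTATTctcTcttcaatccaaa
miR831-3p: tGATCTCTtcgtactcttcttg
AT3G56020, site 71, score 6, chr3:20790865-20790886, minus strand, coding sequence: GaagaagCgtaTgaGgagatTG
AT3G11120, site 105, score 5, chr3:3481244-3481265, plus strand, coding sequence: GaagaagCgtaTgaGgagatTa
miR5665: tTGGTGGAcaagatctgggat
eEF-1Bb1, site 662, score 6, chr1:10640287-10640307, plus strand, coding sequence: GtTGcagatTttgtGcaccaT
TAS1C, site 378, score 2.5, chr2:16537890-16537911, minus strand, non-coding transcript, also with miR173-5p: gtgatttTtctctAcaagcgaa
miR171a-3p: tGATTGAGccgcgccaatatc
HAM1, site 1013, score 0, chr2:18619128-18619148, minus strand, coding sequence: gatattggcgcggctcaatca

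The site of AT3G08520 has the same sequence as that of AT3G56020, and both genes encode ribosomal protein L41, as does AT3G11120. Reads from these near-identical sites, and from the TAS1B and TAS1C sites, could be shared between the genes, so the level of each single gene is uncertain. Several poorly paired sites could be aligned near their score only with a bulge in guide or target. Those of MEE26, AT5G27850 and AB140 then reached the deposited score, and those of HTA6 and AT1G08125 scored 0.5 above it. The scores are those deposited. Recomputed on the RefSeq sequence with a bulge allowed, 5 of the named sites scored 4 or less and so belong to the poorly paired class by the deposited score only. These were TAS3C, TAS3A site 863 and AT5G41170 at 3.5, and AGO1 and DELTA-TIP2 at 4. Site positions count from the 5′ end of the transcript model used by the authors. Of the 1492 sites, 496 were found at the same position of the RefSeq transcript and 809 at 1 other position. Of these 1305 placed sites, 1129 (86.5%) lay in coding sequence, 120 (9.20%) in 3′ UTRs, 37 (2.84%) in 5′ UTRs and 19 (1.46%) in non-coding transcripts.

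A library listed between 54 and 274 poorly paired sites, which was 64.0% to 91.0% of the sites it listed. Levels are in RPM, the number of 5′ ends at the predicted position scaled to the size of the library, and a site that a library did not list was taken as 0. Within each library the levels were whole multiples of a step between 0.000981 and 0.00428 RPM, far too small to stand for 1 read, so the read depth behind a level is unknown and no counting interval can be given. The third dcl1-5 library stood apart, with 54 poorly paired sites and a summed level of 25.7 RPM against 161 and 179 sites and 76.4 and 85.9 RPM in the others. Its strongest poorly paired site was in the chloroplast gene YCF2.2, at 3.59 RPM. The main results on dcl1-5 are therefore also given without it. In the dcl1-5 mRNA-seq libraries the DCL1 transcript was at 0.0226, 0.0359 and 0.0268 TPM (a transcript level scaled for length and depth). In small RNA libraries, miR159b-3p was at 327 RPM ± 22.6 (SD, n = 3) in wild-type and 15.1 RPM ± 11.97 (n = 3) in dcl1-5 globular embryos. Other guides were not compared by level, since the arm names in those tables are uncertain: miR173-5p was at 0, 0 and 2.06 RPM in wild-type globular embryos, where miR173-3p was at 1350 RPM in the first library.

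Most poorly paired sites were weak, and a part of them was listed in a single library, a share near that of well-paired sites. Of the 1492 sites, 602 (40.3%) were listed in a single library, against 86 of the 243 well-paired sites (35.4%), and 128 were listed in at least 10 libraries. Only the site in AT1G08125, which encodes a predicted methyltransferase, was listed in all 33. The median level of a listed poorly paired site was 0.266 RPM, against 0.368 RPM for a listed well-paired site, and 89.6% of listings were under 1 RPM, against 75.7%. The highest level of any of them was 18.4 RPM. The tables also carry a mark for verified sites, whose criterion is not given in the sources used here: 8 poorly paired sites (0.536%) carried it, against 58 well-paired sites (23.9%). The guide families with the most poorly paired sites were miR156 with 93, miR396 with 82, miR773 with 79 and miR829 with 61.

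Replicates shared few of these sites. In wild-type globular embryos 448 poorly paired sites were listed in at least 1 library and 48 of them (10.7%) in all 3, against 17 of 89 well-paired sites (19.1%). In dcl1-5 globular embryos 7 of 320 poorly paired sites (2.19%) were listed in all 3 libraries, and 0 of 39 well-paired sites. Across the sites of a group, Pearson's r between replicate libraries ran from 0.62 to 0.69 for poorly paired and from 0.87 to 0.93 for well-paired sites in wild-type globular embryos. For poorly paired sites r was 0.0094 to 0.60 in dcl1-5, 0.14 to 0.24 in xrn4-5 roots and 0.30 to 0.51 in xrn4-5 shoots. These correlations are across sites of the same libraries and describe them only.

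The main question was whether poorly paired sites lose their level in dcl1-5 embryos, where miRNAs are depleted. Their summed level was 120.7, 108.0 and 108.2 RPM in the wild-type globular libraries and 85.9, 76.4 and 25.7 RPM in the dcl1-5 globular libraries. The dcl1-5 libraries were all lower, and the groups did not overlap. The means were 112.3 RPM ± 7.31 (SD, n = 3) and 62.7 RPM ± 32.4 (n = 3), so 55.8% of the wild-type level was left, a log2 difference of −1.02. Without the third dcl1-5 library, 72.3% was left, a log2 difference of −0.47. With 3 libraries against 3, an exact permutation test cannot give a p below 0.1, so by that test none of the differences in sums, numbers or medians between these groups can pass a threshold of 0.05, however large. In bulk samples, fewer cells of a type and less RNA per cell cannot be told apart.

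The well-paired sites had little level in the same dcl1-5 libraries, which listed 22, 16 and 12 of them against 39, 57 and 46 in wild-type globular libraries. Their sum was 105.5, 83.9 and 60.2 RPM in wild-type and 4.89, 3.49 and 1.53 RPM in dcl1-5 globular embryos. The means of 83.2 RPM ± 22.6 and 3.30 RPM ± 1.69 (n = 3 each) left 3.97% of the wild-type level, a 25.2-fold difference. The ratio of the well-paired to the poorly paired sum, in which the scale of a library cancels, was 0.874, 0.777 and 0.557 in wild-type and 0.0570, 0.0457 and 0.0595 in dcl1-5. The ratios did not overlap, and their means differed 13.6-fold, a log2 difference of −3.75. Poorly paired sites made up 53.4%, 56.3% and 64.2% of the listed RPM in wild-type and 94.6%, 95.6% and 94.4% in dcl1-5 embryos. The share of poorly paired sites was thus higher in dcl1-5 while their summed RPM was lower.

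The number and the typical level of poorly paired sites overlapped between the genotypes. Wild-type globular libraries listed 146, 273 and 201 of them and dcl1-5 libraries 179, 161 and 54. The median level of a listed poorly paired site was 0.465, 0.186 and 0.250 RPM in wild-type and 0.224, 0.210 and 0.251 RPM in dcl1-5. Neither measure separated the groups.

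**Figure D1:**
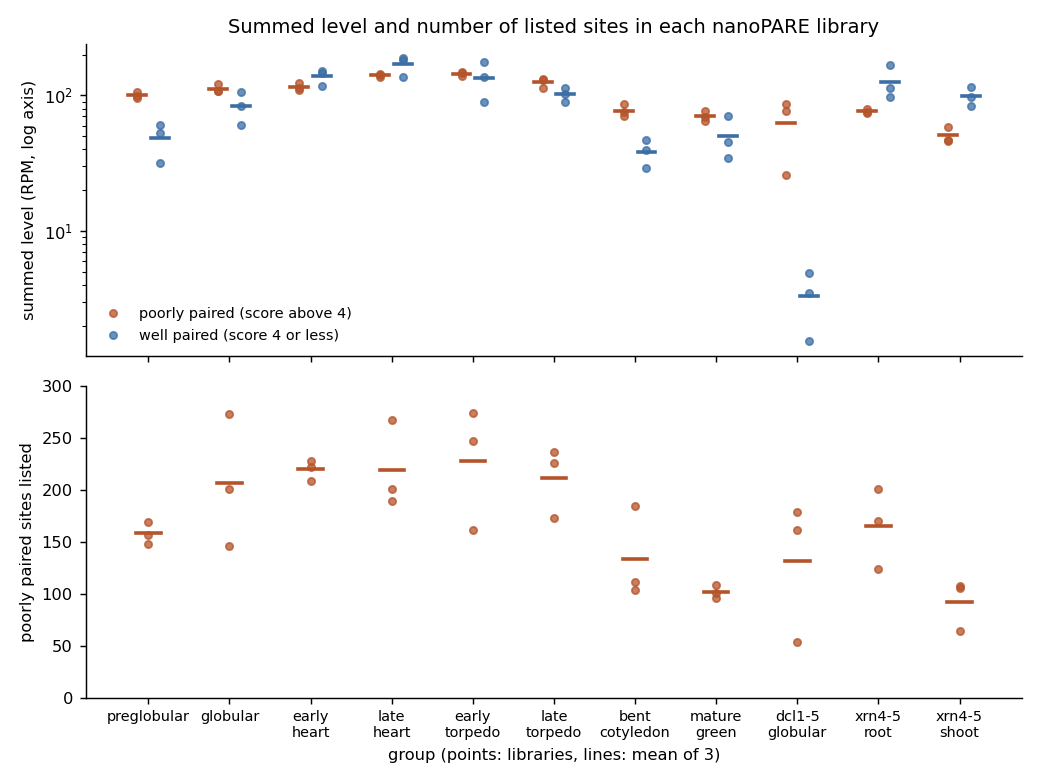
Summed level in RPM on a log axis (top) and number of poorly paired sites listed (bottom) in each of the 33 nanoPARE libraries by group, with points for libraries and lines for the mean of 3. Poorly paired sums in dcl1-5 globular embryos sit at 25.7 to 85.9 RPM, below the 108.0 to 120.7 RPM of wild-type globular embryos, while well-paired sums drop to 1.53 to 4.89 RPM.

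The level left in dcl1-5 differed with the score. At each score from 0 to 3 with any level in wild-type, at most 3.41% of that level was left, and at 3.5 it was 29.2%. On either side of the limit, the 114 sites with a score of 4 went from a mean of 3.74 RPM ± 1.87 to 1.99 RPM ± 1.05 (53.3% left, groups overlapping), and the 167 sites with a score of 4.5 from 21.1 RPM ± 3.19 to 7.61 RPM ± 0.896 (36.0% left, no overlap). The 5 sites with a score of 4.5 that were marked as verified held much of the wild-type level at that score. Without them the mean went from 10.11 to 7.55 RPM, and 74.7% was left. At scores of 5, 5.5 and 6 the level left was 56.0%, 55.3% and 66.2%, or 69.9%, 74.0% and 91.1% without the third dcl1-5 library. Without that library it was 35.5% at 3.5, 68.7% at 4 and 37.6% at 4.5. The groups did not overlap at 5 and 5.5 and overlapped at 6.

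**Figure D2:**
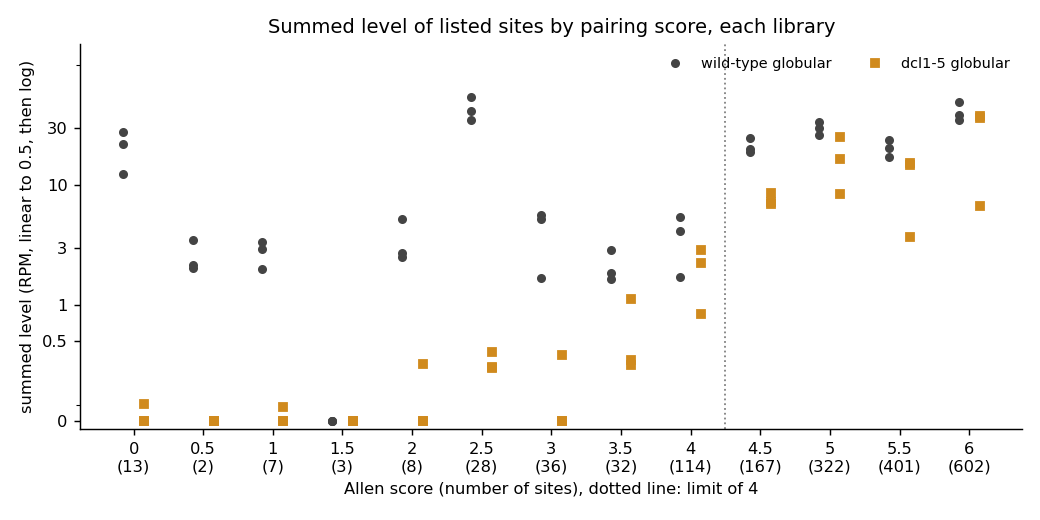
Summed level in RPM (linear to 0.5, then log) of all sites of each Allen score in the 3 wild-type (circles) and 3 dcl1-5 (squares) globular libraries, with the number of sites in parentheses. Levels in dcl1-5 are under 0.5 RPM at scores up to 3, while at scores of 4.5 to 6 they run from 3.67 to 37.8 RPM. They do not overlap the wild-type libraries at 4.5, 5 and 5.5 and overlap them at 6.

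The 8 poorly paired sites marked as verified had little level in dcl1-5, a difference that rested on 3 of them. They summed to 14.2, 10.2 and 9.19 RPM in wild-type and 0, 0.315 and 0.180 RPM in dcl1-5 globular embryos, so 1.47% was left. TAS1B, TAS3C and TAS3A site 863 went from 10.9 RPM ± 2.64 to 0.0602 RPM ± 0.104 (n = 3 each), and the other 5 from 0.255 RPM ± 0.263 to 0.105 RPM ± 0.182. Besides 4 sites in the TAS transcripts, they lay in AGO1, which encodes the main miRNA effector and is a known target of miR168, in the bHLH gene AT1G10120 with miR396a-5p, in the rhodanese-like gene AT2G40760 with miR396b-5p and in the pentatricopeptide repeat gene AT5G41170 with miR161.1. The other 1484 sites summed to 101.1 RPM ± 4.73 in wild-type and 62.5 RPM ± 32.4 in dcl1-5 (n = 3 each), with 61.8% left, or 80.1% without the third dcl1-5 library. Well-paired sites that were not marked as verified, 185 in number, had 25.7% left, from 9.48 RPM ± 3.00 to 2.43 RPM ± 1.39. How the mark was set in relation to these libraries is not known, so it is no independent sign of a loss in dcl1-5.

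Single sites were tested with limma on log2(RPM + 1), with Benjamini-Hochberg adjustment over the 269 sites of both classes listed in at least 2 of the 6 globular libraries. Differences on this scale understate changes of weak sites. Here and in the limma tests below, a site listed in just 1 of the groups compared passed the filter through that group alone. The direction of its difference was then fixed in advance, and its p-value is no separate evidence of it. Of the 1492 poorly paired sites, 227 entered the test, and 5 were called lower in dcl1-5 and 0 higher at an adjusted p under 0.05. Across both classes 5.95% were called, all of them lower, and the well-paired class held 11 of the 16 calls among 42 tested sites. Without the third dcl1-5 library, 3 poorly paired sites were called lower and 2 higher by limma. The count was 3 without the first and 2 without the third wild-type globular library, and 2 without the second dcl1-5 library. At an unadjusted p under 0.05, 25 poorly paired sites were lower and 3 higher by limma. The matching share over all tested sites was not computed, so these counts show no trait of poorly paired sites. The filter also weighs on them: 11 poorly paired sites were listed in all 3 wild-type and no dcl1-5 globular library, and 0 showed the reverse. The median log2 difference was −0.09 over the poorly paired sites tested, −0.27 over the well-paired sites tested and −0.10 over all sites tested. Every dcl1-5 library was below every wild-type library at 25 of the 227 poorly paired sites (11.01%), where the share over all tested sites was 14.9%, and at 15 of the 42 well-paired sites (35.7%). The reverse held at 1 poorly paired site, with 0.372% over all tested sites.

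**Figure D3:**
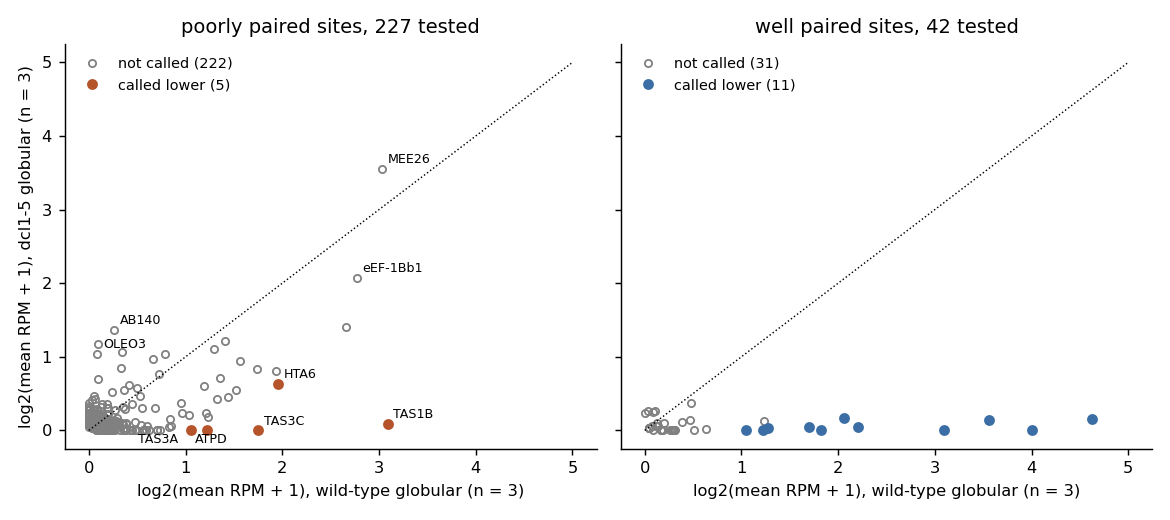
Mean level of each tested site in wild-type against dcl1-5 globular embryos on a log2(RPM + 1) scale (n = 3 each), with filled points for sites called lower by limma and a dotted line of equality. Of 227 poorly paired sites 5 are called and others such as MEE26 and eEF-1Bb1 lie nearer the line, while 11 of 42 well-paired sites are called and lie along the bottom.

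The strongest loss was at the TAS1B site, which pairs with miR173-5p. It stood at 12.6, 4.91 and 5.04 RPM in wild-type and 0, 0 and 0.180 RPM in dcl1-5 globular embryos, with no overlap. The log2 difference was −2.89 (SE 0.509) with an adjusted p of 8.93e-07 by limma with Benjamini-Hochberg adjustment, and the site was called under all 11 alternatives run. The well-paired TAS1C site of the same guide went from 33.0, 22.5 and 15.5 RPM to 0.214, 0.124 and 0 RPM.

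The TAS3C and TAS3A sites pair with miR390a-5p and were also lost. TAS3C was at 0.645, 2.93 and 3.50 RPM in wild-type globular embryos and listed in no dcl1-5 library, with a log2 difference of −1.62 (SE 0.379) and an adjusted p of 0.000611 by limma. It was called in 8 of 11 alternatives, and the call ended without the second or without the third wild-type globular library (adjusted p = 0.116 and 0.119 by limma). TAS3A site 863 was at 0.780, 1.82 and 0.642 RPM and likewise listed in no dcl1-5 library, with a log2 difference of −1.01 (SE 0.310) and an adjusted p of 0.0222 by limma. That call held in 4 of 11 alternatives, with adjusted p of 0.0706 by limma without the third and up to 0.170 without the second dcl1-5 library. A further TAS3A site at position 619 was listed in the second dcl1-5 library, at 0.315 RPM, and in no wild-type globular library. In dcl1-5 embryos the TAS3C transcript was at only 0.411, 0.523 and 0.684 TPM. The TAS3A transcript was at 466, 532 and 454 TPM and that of TAS1B at 15.7, 11.5 and 12.5 TPM. The part of transcript level in the TAS3C site level was not tested. The TAS transcripts were grouped after their values had been seen.

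ATPD encodes the delta subunit of the chloroplast ATP synthase, and its site pairs with miR159b-3p. It was at 1.41, 1.25 and 1.33 RPM in wild-type globular embryos and listed in no dcl1-5 library. The log2 difference was −1.22 (SE 0.333) with an adjusted p of 0.00665 by limma, and it was called in 8 of 11 alternatives. Without the first or the second dcl1-5 library the adjusted p was 0.0504 or 0.0939 by limma. The ATPD transcript itself was present in dcl1-5 embryos, at 209, 222 and 233 TPM.

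HTA6, a histone H2A gene, was called with the least margin. Its site, assigned to miR5654-3p, was at 1.41, 1.70 and 5.51 RPM in wild-type and 1.63, 0 and 0 RPM in dcl1-5 globular embryos, so the groups overlapped. The log2 difference was −1.34 (SE 0.445) with an adjusted p of 0.046 by limma, and it was called in 4 of 11 alternatives. Without the third wild-type globular library the log2 difference was −0.89 and the adjusted p 0.352 by limma, and without the third dcl1-5 library they were −1.10 and 0.152. Together the 5 called sites went from 15.1 RPM ± 2.23 to 0.603 RPM ± 0.892 (n = 3 each). The remaining 1487 poorly paired sites went from 97.1 RPM ± 6.09 to 62.1 RPM ± 31.9, with 63.9% left, or 82.7% without the third dcl1-5 library.

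Other strong sites were still listed in dcl1-5 embryos. MEE26, a hydroxyproline-rich glycoprotein gene of the maternal effect embryo arrest class, had the strongest poorly paired site in dcl1-5. The site, assigned to miR390a-5p with a score of 6, was at 8.49, 7.09 and 5.86 RPM in wild-type and 13.4, 18.4 and 0.410 RPM in dcl1-5 globular embryos. It was higher in 2 dcl1-5 libraries and far lower in the third, with a log2 difference of −0.14 (SE 0.585) and an adjusted p of 0.927 by limma. Without the third dcl1-5 library the log2 difference was 1.05 and the site was called higher in dcl1-5 (adjusted p 0.00141 by limma), so this library decided the direction. The MEE26 transcript was at 4191, 6186 and 6182 TPM in dcl1-5. Thus, of sites that share the guide miR390a-5p, TAS3C and TAS3A site 863 were listed in no dcl1-5 library, while MEE26 had a mean of 10.7 RPM there.

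eEF-1Bb1 encodes a subunit of the translation elongation factor 1B complex, and its site is assigned to miR5665. It was at 7.60, 3.61 and 6.27 RPM in wild-type and 6.01, 3.58 and 0 RPM in dcl1-5 globular embryos, with a log2 difference of −1.06 (SE 0.568) and an adjusted p of 0.38 by limma. The level of 0 was in the third dcl1-5 library, without which the log2 difference was −0.22 (adjusted p 0.743 by limma). CP29, which encodes a chloroplast RNA-binding protein, had a site in its 3′ UTR at 0.794, 3.46 and 1.58 RPM in wild-type and 0.472, 2.27 and 0 RPM in dcl1-5. The AT1G08125 site was at 0.632, 2.84 and 1.50 RPM in wild-type and 3.06, 0.454 and 0.466 RPM in dcl1-5.

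Ribosomal protein genes held 35 poorly paired sites in 32 genes and took a large part of the poorly paired level. These sites summed to 26.4, 21.5 and 23.8 RPM in wild-type and 17.4, 11.995 and 0.965 RPM in dcl1-5 globular embryos. That was 21.3% of the poorly paired level in wild-type and 16.1% in dcl1-5, with 42.3% of the wild-type level left, or 61.4% without the third dcl1-5 library. Of 15 sites tested, 0 were called by limma and 12 had a negative difference. Among all sites tested, 148 of 227 poorly paired and 38 of 42 well-paired sites had a negative difference. The median log2 difference of the 15 was −0.39, against −0.10 over all sites tested. The site of AT5G27850, a ribosomal protein L18e/L15 gene, was at 4.84, 5.90 and 5.20 RPM in wild-type and 2.78, 2.18 and 0 RPM in dcl1-5, with an adjusted p of 0.106 by limma. It did not overlap between genotypes, and its adjusted p by limma over the 11 alternatives ran from 0.0258 to 0.359. The log2 difference was −1.46, or −0.86 without the third dcl1-5 library.

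The L41 genes had like levels at their near-identical sites. AT3G56020 was at 2.39, 2.76 and 3.32 RPM in wild-type and 0.890, 1.36 and 0 RPM in dcl1-5. AT3G11120 was at 2.14, 3.14 and 1.74 RPM in wild-type and 0.870, 1.49 and 0 RPM in dcl1-5. AT3G08520 was at 1.88, 1.68 and 2.05 RPM in wild-type and 0.611, 0.790 and 0 RPM in dcl1-5. None of these overlapped between genotypes, and their adjusted p by limma were 0.126, 0.235 and 0.148, or 0.34, 0.529 and 0.357 without the third dcl1-5 library.

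At 1 site every dcl1-5 library was above every wild-type library, that of AB140, which encodes a chlorophyll a/b binding protein of the light-harvesting antenna. The site, assigned to miR842, was at 0, 0.375 and 0.207 RPM in wild-type and 1.13, 1.66 and 1.92 RPM in dcl1-5 globular embryos. The log2 difference was 1.11 (SE 0.376) with an adjusted p of 0.0525 by limma, and 4 of 11 alternatives called it. OLEO3, which encodes an oil body protein of maturing seeds, had a site at 0, 0 and 0.182 RPM in wild-type and 2.47, 0.702 and 0 RPM in dcl1-5, with an adjusted p of 0.119 by limma. Without the third dcl1-5 library it was called higher, with a log2 difference of 1.20 and an adjusted p of 0.0159 by limma. In dcl1-5 the transcripts were at 1893, 2592 and 2730 TPM for AB140 and 1703, 2475 and 2177 TPM for OLEO3.

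Of the 448 poorly paired sites listed in wild-type and the 320 listed in dcl1-5 globular embryos, 154 were shared, which was 34.4% of the former and 48.1% of the latter. The shared sites held 66.2% of the wild-type and 76.5% of the dcl1-5 level, and 90 of them had the lower mean in dcl1-5. Only 5 were listed in all 6 libraries. In all 3 wild-type libraries and no dcl1-5 library, 11 were listed, and 0 showed the reverse. Of 89 well-paired sites listed in wild-type, 23 (25.8%) were shared, and 8 were listed in all 3 wild-type libraries and no dcl1-5 library. Over both classes 33.0% of the sites listed in wild-type were shared. Of the 166 poorly paired sites listed in dcl1-5 but not in wild-type globular embryos, 124 were listed in some other group. Over both classes it was 133 of 182, a like share.

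By place in the transcript, poorly paired sites in coding sequence had 57.7% of the wild-type level left in dcl1-5, from 84.3 to 48.6 RPM, or 75.3% without the third dcl1-5 library. Those in 3′ UTRs had 81.9% left, from 9.84 to 8.05 RPM, or 119% without that library, and those in 5′ UTRs had 72.9% left, from 0.385 to 0.280 RPM. The 19 sites in non-coding transcripts had 2.50% left, from 11.2 to 0.280 RPM, but nearly all of that level was in the 4 TAS sites. The other 15 went from 0.255 to 0.115 RPM, with 45.1% left. These are means of 3 libraries and were not tested.

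Fewer than 50% of the poorly paired sites listed in any library stood above the ends around them. The tables give for each listed site a fold, the site level plus 1 over the local background plus 1. In wild-type globular libraries the fold was above 1 at 27.4%, 23.1% and 25.4% of poorly paired sites and at 59.0%, 57.9% and 58.7% of well-paired sites. In dcl1-5 the shares were 15.6%, 11.8% and 46.3% for poorly paired and 36.4%, 31.2% and 33.3% for well-paired sites. The third dcl1-5 library was the only one of the 33 in which the poorly paired share was the higher. In xrn4-5 shoots the shares were 40.2%, 46.9% and 36.8% for poorly paired and 89.5%, 97.2% and 100% for well-paired sites.

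**Figure D4:**
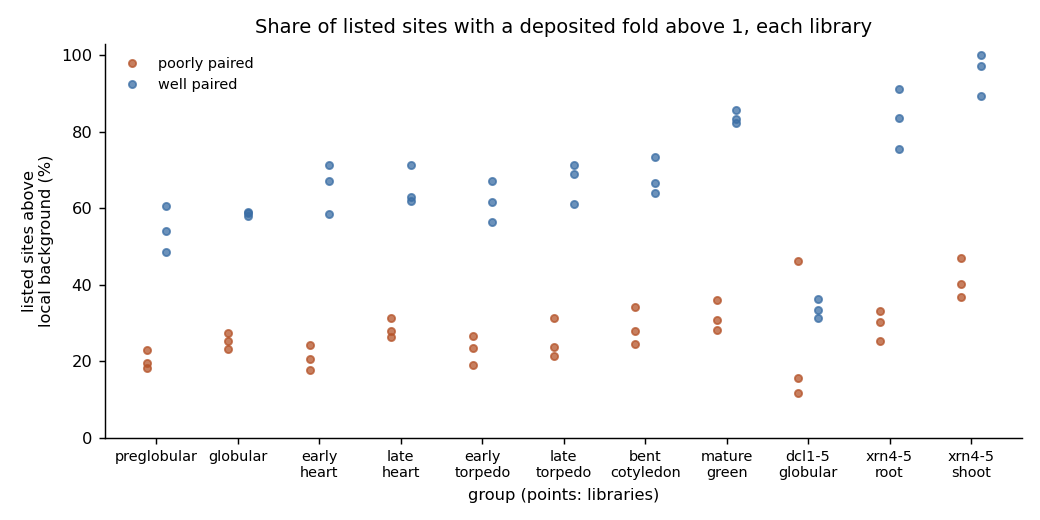
Share of listed sites whose deposited fold over local background is above 1, in percent, for poorly and well-paired sites in each of the 33 libraries by group, with points for libraries. Poorly paired sites lie between 11.8% and 46.9%, and well-paired sites are higher in every library except the third dcl1-5 library.

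Genes with a poorly paired site listed in dcl1-5 also had high transcript levels there. The 311 genes with such a site listed in a dcl1-5 nanoPARE library had median transcript levels of 26.9, 25.6 and 31.7 TPM in the 3 dcl1-5 mRNA-seq libraries. The 1083 genes whose poorly paired sites were listed only elsewhere had medians of 8.97, 7.56 and 9.66 TPM, and all 37390 nuclear genes had medians of 0.611, 0.471 and 0.465 TPM. The 223 genes with a well-paired site were at 10.4, 9.54 and 12.1 TPM. Transcript levels thus moved with listing, and their part in the site levels was not tested, nor were wild-type mRNA levels analysed here.

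Across the wild-type stages the summed level of poorly paired sites was highest at the early torpedo and lowest at the mature green stage. It was 105.8, 98.9 and 95.7 RPM in preglobular embryos, 138.4, 148.0 and 145.5 RPM at early torpedo and 69.0, 76.1 and 64.7 RPM at mature green. The highest and lowest stage means, 144.0 RPM ± 4.95 and 69.9 RPM ± 5.79 (n = 3 each), differed 2.06-fold. For sites with a score above 5 alone, the highest mean was at late heart and the lowest at bent cotyledon, with a 1.73-fold difference. Late heart and early torpedo overlapped (1.02-fold). Adjacent stages did not overlap from preglobular to globular (1.12-fold), from early to late heart (1.23-fold), from early to late torpedo (0.873-fold) and from late torpedo to bent cotyledon (0.615-fold). The well-paired sum differed 0.375-fold at that last step, also with no overlap, and both classes overlapped between bent cotyledon and mature green. By the paper's methods, the bent cotyledon libraries alone among these stages did not use cDNA pools from an earlier transcriptome study. Stage and source of material therefore cannot be told apart at the steps to and from bent cotyledon.

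By limma across the 8 stages, 21 of 743 poorly paired sites tested differed, where 4.22% of the 877 sites of both classes were called. The well-paired class held 16 calls among 134 sites. Without the first library of each stage, 37 poorly paired sites were called. The called poorly paired sites had their highest mean at mature green in 7 cases, at early torpedo in 5, at globular and bent cotyledon in 3 each, at late heart in 2 and at preglobular in 1.

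The 7 called sites highest at mature green included those of CRC, CRB, AT1G03890 and the oil body gene OLEO3. The others lay in AT-EXP1, RTNLB13 and AMY3, which encode an expansin, a reticulon-like protein and an alpha-amylase-like protein. CRC and CRB encode the cruciferin storage globulins. The CRC site, assigned to miR4221, was listed in no library before late torpedo, was at 2.57, 1.55 and 10.2 RPM at bent cotyledon and was at 12.2, 17.5 and 13.7 RPM at mature green, where it was the strongest poorly paired site (adjusted p 1.02e-10 by limma). The CRB site was at 8.37, 9.41 and 6.50 RPM at mature green (adjusted p 4.1e-11 by limma). AT1G03890, which encodes a cupin of the same superfamily, was listed at mature green alone, at 1.58, 1.83 and 1.87 RPM (adjusted p 4.1e-11 by limma). In dcl1-5 globular embryos the CRC transcript was at 0 TPM and its site was not listed. The OLEO3 transcript was at 1703, 2475 and 2177 TPM there, and its site at 2.47, 0.702 and 0 RPM. The part of transcript level in these site levels was not tested. The 3 seed storage and oleosin sites, of CRC, CRB and OLEO3, summed to 27.7 RPM ± 5.45 (n = 3) at mature green. Their sum was 0.0606 RPM ± 0.105 in wild-type and 1.06 RPM ± 1.27 in dcl1-5 globular embryos (n = 3 each), from OLEO3 alone.

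The TAS and ATPD sites had their highest levels in mid-embryogenesis. TAS3C was absent from preglobular libraries, reached 10.9, 13.7 and 7.33 RPM at early torpedo and was at 0.255, 0 and 0 RPM at mature green (adjusted p 1.2e-06 by limma). TAS1B was at 8.15, 17.6 and 14.7 RPM at early torpedo and 0, 0.505 and 1.36 RPM at bent cotyledon (adjusted p 5.99e-05 by limma). ATPD was absent from preglobular libraries and was at 12.2, 10.4 and 7.18 RPM at late heart (adjusted p 1.46e-05 by limma). TAS3A site 863 followed a like course, with 14.9, 7.03 and 5.998 RPM at early torpedo (adjusted p 0.000236 by limma). MEE26 ran the other way up to early torpedo, from 13.03, 8.69 and 6.87 RPM in preglobular embryos to 0.327, 0.148 and 0.229 RPM (adjusted p 1.3e-06 by limma). It was higher again at bent cotyledon, at 2.26, 1.47 and 3.80 RPM. AB140 was absent from preglobular libraries and highest at bent cotyledon, at 4.24, 8.80 and 1.76 RPM.

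**Figure D5:**
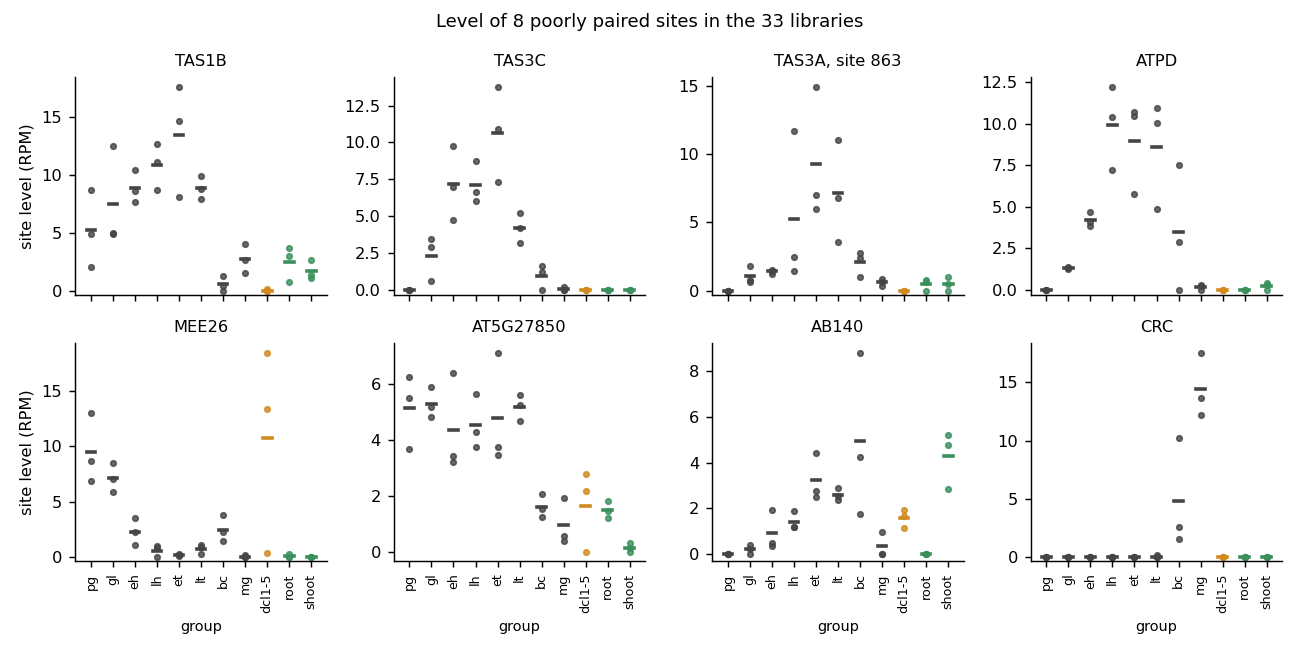
Level in RPM of 8 poorly paired sites in each library (points) with group means (lines), each panel on its own axis, for wild-type embryos (grey, with pg preglobular, gl globular, eh and lh early and late heart, et and lt early and late torpedo, bc bent cotyledon and mg mature green), dcl1-5 globular embryos (orange) and xrn4-5 root and shoot (green). TAS1B, TAS3C, TAS3A and ATPD are at or near 0 RPM in dcl1-5, MEE26 is at 13.4, 18.4 and 0.410 RPM there, and CRC is confined to the last 3 embryonic stages.

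In xrn4-5 seedlings the poorly paired sum was 79.7, 74.6 and 75.2 RPM in roots and 47.3, 46.4 and 58.2 RPM in shoots. The groups did not overlap, with a log2 difference of −0.60, shoot against root. The well-paired sum was 125.8 RPM ± 36.3 in roots and 98.9 RPM ± 16.7 in shoots, so poorly paired sites took 31.1% to 44.9% of the listed RPM in roots and 28.5% to 37.5% in shoots, against 42.2% to 74.97% in the wild-type embryonic libraries. Of 509 poorly paired sites listed in seedlings, 330 were also listed in wild-type embryos, which was 64.8% of the seedling sites and 26.0% of the 1271 embryonic sites. The wild-type embryonic side held more libraries, and the overlap over all sites was not computed. These shares therefore describe the listings and show no trait of poorly paired sites.

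By limma, 3 of 155 poorly paired sites tested were lower and 3 higher in shoots than in roots, where 5.56% and 4.63% of all 216 sites tested were called lower and higher. ARF6, which encodes an auxin response factor and is a known target of miR167, had the strongest poorly paired site in shoots. The site, assigned to miR167a-5p, was at 6.92, 8.06 and 2.09 RPM in shoots and listed in no root library, with a log2 difference of 2.60 (SE 0.394) and an adjusted p of 4.05e-09 by limma. AB140 was at 2.83, 5.21 and 4.78 RPM in shoots and in no root library, with a log2 difference of 2.37 (SE 0.385) and an adjusted p of 5.2e-08 by limma. Both were called in all 9 alternatives, and both passed the filter through shoot libraries alone. The third site higher in shoots, in the lipid-transfer protein gene AT2G10940, was at 0, 0.972 and 2.29 RPM there, and its call (adjusted p 0.0447 by limma) held in 1 of 7 alternatives.

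The sites lower in shoots were in AT5G27850, in DELTA-TIP2, which encodes a tonoplast water channel, and in BGLU21, which encodes a root beta-glucosidase. AT5G27850 was at 1.22, 1.48 and 1.83 RPM in roots and 0.147, 0 and 0.329 RPM in shoots (log2 −1.12, SE 0.348, adjusted p 0.0171 by limma). DELTA-TIP2 was at 1.02, 0.420 and 2.22 RPM and BGLU21 at 1.08, 2.19 and 0.342 RPM in roots. Both were listed in no other group and so passed the filter through root libraries alone (adjusted p 0.0153 and 0.0167 by limma). These calls held in 5, 3 and 3 of 9 alternatives. Without the third root library, 22 poorly paired sites were called by limma, 20 of them lower in shoots. Without the first, the second or the third shoot library 3, 2 and 3 were called.

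Genes on a list of textbook miRNA targets seldom appeared among the poorly paired sites. The list, chosen with earlier results of these data known, held 10 poorly paired sites in 9 genes and 44 well-paired sites in 36 genes. It did not include the TAS precursors or ATPD, which the paper names as a high-confidence target of miR159. Of the 10, only those of ARF6 and AGO1 were listed in more than 3 libraries, in 16 and 25. The AGO1 site of miR168a-5p was at 0.241, 0.186 and 0 RPM in wild-type globular embryos and in no dcl1-5 library, with an adjusted p of 0.394 by limma. TCP3, TCP4 and TCP24, transcription factor genes known as targets of miR319, had single weak sites assigned to the related miR159c. The TCP4 site overlaps the miR319 target site of TCP4 that the paper used in its sensor, so it is not a place apart from that site. PHV, REV and ATHB-8, known targets of miR165/166, and the auxin receptor gene TIR1, a known target of miR393, had sites assigned to other guides, in 1 to 3 libraries each. In dcl1-5 against wild-type globular embryos, 0 of 2 poorly paired sites of the list tested were called by limma, and 8 of 15 well-paired sites were called lower. The sites of TAS1B, TAS3C, TAS3A (position 863) and ATPD, outside the list, were called lower, so the list does not cover all known targets.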

How the data were processed

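The authors trimmed nanoPARE reads, aligned them to the TAIR10 genome and masked capped 5′ ends before EndCut, and the deposited level of each listed site is in RPM. The deposited fold is the level plus 1 over the local background plus 1, and the deposited Allen score is a pairing penalty. For mRNA-seq of dcl1-5 globular embryos the authors deposited estimated counts and TPM from kallisto. The submitters' processing notes name cutadapt, STAR, bedtools and kallisto. The authors' adjusted p-values in the site tables were not used.

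Sites were joined over 33 libraries, with unlisted sites as 0 RPM. Sums, numbers and medians were computed per library (Python 3.11.15, pandas 2.3.3). Sites listed in at least 2 of the libraries compared were fitted on log2(RPM + 1) with limma 3.58.1 in R 4.3.3, with the prior variance following intensity, and p-values were adjusted over both classes (Benjamini-Hochberg, threshold 0.05), without a replicate block. The limma fit was also run on simulated sites with levels well above 0, so that run does not cover weak or unlisted sites such as most of those here. Embryo groups were pools from different plants. The members, gene lists and tests were chosen with earlier results of these data known. Sites named were the 10 highest in wild-type and 5 highest in dcl1-5 globular embryos, the 10 listed in most libraries, the top site of each group, up to 5 called sites each way per test, textbook targets and marked sites. Alternatives were another pseudocount, no filter, no trend, other score limits, a replicate block and leaving out each library.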

Additional observations from a re-analysis of the deposited data

How the results depend on the processing

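For dcl1-5 against wild-type globular embryos, the lower summed level of poorly paired sites reversed when it was taken as a share of the RPM of all listed sites (log2 0.72). The log2 difference ran from −1.34 to −0.47 when each library was left out. The difference in the number of listed sites ran from −106 to −36.7 and that of the median level from −0.58 to 0.0779, the latter without the first wild-type globular library. The ratio of well-paired to poorly paired sites, −3.75 on the log2 scale, was −1.34 for a limit above 5, −4.995 with a score of 4 counted as poorly paired, −3.19 without the strongest site of each class and −1.25 without the sites marked as verified, a setting chosen after seeing the data. It ran from −3.94 to −3.61 when each library was left out.

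The 5 poorly paired sites called by limma became 10 with a pseudocount of 0.1, 3 without the filter, 8 without the intensity trend and 16 in a fit to all 27 embryo libraries, and these shared 5, 3, 3 and 3 sites with the 5. When each library was left out, the count ran from 2 to 7. The log2 difference of MEE26 ran from −0.84 to 1.05, positive without the third dcl1-5 library, and that of AT1G08125 from −0.78 to 0.0233, positive without the second wild-type globular library. The 6 calls between xrn4-5 shoots and roots ran from 2 to 22, and the 21 calls across stages from 23 to 37, when replicates were left out. The log2 difference of the xrn4-5 sums ran from −0.71 to −0.54 and the stage range from 1.97-fold to 2.12-fold. The cause of these differences was not tested.

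Replicate numbers did not pair the samples, with r between same-numbered deviations from −0.031 to 0.107 for dcl1-5 against wild-type and from −0.017 to 0.068 for the xrn4-5 tissues. With the replicate block, limma called 7, 2 and 17 poorly paired sites in the dcl1-5, xrn4-5 and stage comparisons, and the summed difference stayed at −1.02. The 2 calls left between the xrn4-5 tissues were higher in shoots, and the calls lower in shoots were lost (adjusted p by limma 0.0547 for AT5G27850, 0.0776 for DELTA-TIP2 and 0.0804 for BGLU21). Read depth is unknown, so the counting error of single levels cannot be given.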
